A study of Mus musculus with 8 samples.

Results

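The genes described here are 9 receptors that steer blood cells between organs: the chemokine receptors Ccr2, Ccr7, Ccr9, Cx3cr1, Cxcr3, Cxcr4, Cxcr5 and Cxcr6, and S1pr1, a receptor for sphingosine-1-phosphate. They were named by symbol and taken from the expression table wherever a probeset (a group of array probes read as 1 value) was assigned to exactly 1 of them. Each was found once, giving 9 of 19938 genes and 9 of 21789 single-gene probesets. The study asked how bone marrow progenitors of mice without Tcf1, a transcription factor of the T lineage encoded by Tcf7, respond to a Notch ligand. Lymphoid primed multipotent progenitors (LMPPs, sorted as lineage marker negative, Sca+, kit+ and Flt3 high) of Tcf1-deficient (Tcf7-/-) and Tcf1-wildtype mice were grown for 4 days on OP9-DL4, a stromal cell line that presents a Notch ligand. All cultures received Flt3L at 5 ng/ml and IL1, as the labels name it, at 1 ng/ml. CD45.2+ cells were then sorted by surface protein into lineage-negative cells (LN: Mac1-, Gr1-, Thy1-, CD25-) and T lineage cells (T: Thy1+, CD25+).

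The groups were deficient LN (3 arrays, 3 mice), wildtype LN (3 arrays, 3 mice) and wildtype T (2 arrays). Deficient progenitors gave no T lineage cells per the design text, so deficiency and T lineage identity are not crossed in this design. The Tcf7-/- line had been backcrossed for about 6 generations and was kept on a mixed background. The sources used here do not give the animals' age, or say whether the T arrays share mice with the LN arrays. Levels are deposited log2 values made with robust multi-array averaging (RMA), so a difference of 1 is a 2-fold change. Array medians lay between 6.85 and 6.91, and within a group the correlation over probesets was 0.995 to 0.997. Tcf7 itself was not analysed here, which leaves the labelled genotypes unchecked by its transcript. The 8 measured T lineage markers were all higher in T than in wildtype LN. Thy1 and Il2ra among them encode Thy1 and CD25, on which the gates were set, so they are no separate check.

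Chemokine receptors are G protein-coupled receptors: a chemokine fixed on or released from tissue binds them, the Gi protein they carry dissociates, and the cell moves up the gradient until receptor kinases, arrestins and RGS proteins shut the signal down. In early lymphoid cells Cxcr4 answers Cxcl12 and holds progenitors in the bone marrow, and Ccr9 and Ccr7 bring them into the thymus in answer to Ccl25 and to Ccl19 and Ccl21. Ccr2 and Cx3cr1 are best known on monocytes and their relatives, Cxcr3 and Cxcr6 on effector lymphocytes, Cxcr5 on cells that enter B cell follicles, and S1pr1 lets lymphocytes leave tissue into blood and lymph.

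The stretch upstream of the start site is shown for the 5 receptors that were lower in T lineage cells and have an entry in the RefSeq promoter table (build GRCm38.p6), because those genes moved together. Of the 9 members 6 had an entry, and Ccr7, Cxcr5 and S1pr1 had none. Each line holds the 250 bases before the annotated start, read 5′ to 3′ on the gene's own strand, with a match to a TCF/LEF motif in capitals. TCF/LEF proteins are the family to which Tcf1 belongs. The windows lie at chr9:124101933-124102182 on the plus strand for Ccr2, chr9:120068297-120068546 on the minus strand for Cx3cr1, chr9:123766961-123767210 on the plus strand for Ccr9, chr9:123806227-123806476 on the plus strand for Cxcr6 and chrX:101734148-101734397 on the minus strand for Cxcr3.
Ccr2: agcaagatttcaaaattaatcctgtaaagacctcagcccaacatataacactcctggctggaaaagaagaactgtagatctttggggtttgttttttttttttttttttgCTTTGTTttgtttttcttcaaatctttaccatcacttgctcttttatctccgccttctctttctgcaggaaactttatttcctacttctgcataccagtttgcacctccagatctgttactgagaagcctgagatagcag
Cx3cr1: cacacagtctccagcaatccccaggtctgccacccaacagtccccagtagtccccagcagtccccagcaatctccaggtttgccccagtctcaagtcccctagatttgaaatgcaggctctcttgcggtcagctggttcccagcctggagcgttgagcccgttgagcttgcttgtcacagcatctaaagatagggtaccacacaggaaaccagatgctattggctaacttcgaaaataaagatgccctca
Ccr9: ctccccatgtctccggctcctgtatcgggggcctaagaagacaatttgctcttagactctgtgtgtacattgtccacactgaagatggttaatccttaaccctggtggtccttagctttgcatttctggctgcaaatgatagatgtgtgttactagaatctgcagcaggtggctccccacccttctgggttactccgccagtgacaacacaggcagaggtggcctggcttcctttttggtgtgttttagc
Cxcr6: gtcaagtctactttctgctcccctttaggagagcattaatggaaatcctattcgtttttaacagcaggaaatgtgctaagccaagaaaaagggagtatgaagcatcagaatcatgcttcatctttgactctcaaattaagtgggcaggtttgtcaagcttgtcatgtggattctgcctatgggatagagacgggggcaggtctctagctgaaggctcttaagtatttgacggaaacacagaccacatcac
Cxcr3: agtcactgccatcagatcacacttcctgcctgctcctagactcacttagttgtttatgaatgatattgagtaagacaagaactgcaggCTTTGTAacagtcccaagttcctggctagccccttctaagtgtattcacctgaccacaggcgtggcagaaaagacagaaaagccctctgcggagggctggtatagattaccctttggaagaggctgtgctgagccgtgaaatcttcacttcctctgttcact

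Both strands were searched for 4 forms of the TCF/LEF motif, of which the first was CTTTGAA and the second was CTTTGAT. The third form was CTTTGTT and the fourth form was CTTTGTA. The Ccr2 window held CTTTGTT, its first base 140 bases before the start. The Cxcr3 window held CTTTGTA, 162 bases before the start. The windows of Cx3cr1, Ccr9, Cxcr6 and Cxcr4 held none of these letters. Of all 32851 windows of this length in the table, 14.8% held a TCF/LEF match, against 2 of the 6 member windows. The RUNX letters TGTGGT, also searched on both strands, stood in 14% of all windows and, as ACCACA, in those of Cx3cr1, Cxcr3 and Cxcr6. A match is a run of letters in a window and not a measured binding site.

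More of the receptor genes differed between the T lineage and the LN gate than between the genotypes. In T against wildtype LN, 6 of the 9 members were lower, 1 was higher and 2 did not pass, with a call at a limma p under 0.05 after Benjamini-Hochberg adjustment over all 21789 probesets. Among all probesets 10.4% were called lower and 7.66% higher. The lower members were Ccr2, Ccr9, Cx3cr1, Cxcr6, Cxcr3 and Ccr7, and Cxcr5 was higher. These 7 genes were also called, in the same directions, in T against deficient LN, where 8.16% of all probesets were called lower and 5.98% higher. Without T array 1, 6 members were called against wildtype LN and 4 against deficient LN. The T arrays serve in both comparisons, so these are not separate evidence. The median difference of the members was -0.60 against wildtype LN and -0.51 against deficient LN, beside 0.042 and 0.043 over all probesets. In these bulk samples, fewer cells that carry a transcript and less of it per cell cannot be told apart.

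**Figure D1:**
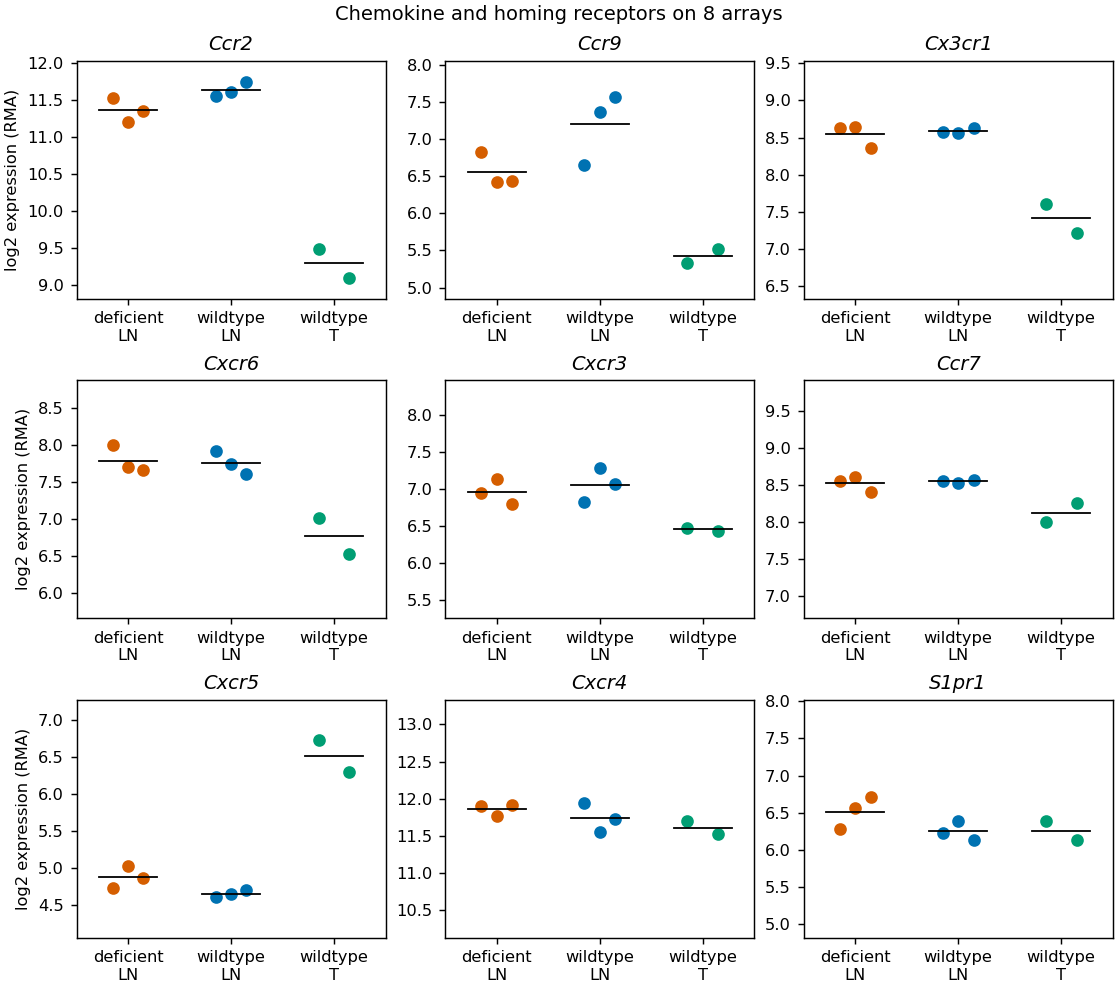
Log2 RMA level of each receptor (vertical axis, separate scale per gene) on each array of the 3 groups (horizontal axis), with points for arrays and bars for group means. The T arrays lie below every LN array for Ccr2, Ccr9, Cx3cr1, Cxcr6, Cxcr3 and Ccr7 and above every LN array for Cxcr5.

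Ccr2, the receptor for Ccl2 that draws monocytes out of the bone marrow, showed the largest difference among the members. Its probeset (10590631) read 11.55, 11.61 and 11.74 in wildtype LN, 11.52, 11.20 and 11.35 in deficient LN, and 9.49 and 9.10 in T. Both T arrays were lower than all 6 LN arrays, and the LN groups lay close together. The group means were 11.63 ± 0.10 (SD, n = 3), 11.36 ± 0.16 (SD, n = 3) and 9.29 ± 0.28 (SD, n = 2). Ccr2 was thus 5.07-fold lower in T than in wildtype LN (log2 difference -2.34, SE 0.13, limma adjusted p = 6.4e-07) and 4.19-fold lower than in deficient LN (-2.07, SE 0.13, adjusted p = 1.97e-06).

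Cx3cr1, the receptor for the membrane-bound chemokine Cx3cl1 and a gene of monocytes, macrophages and some dendritic cells, fell less. Its probeset (10597743) read 8.57, 8.56 and 8.63 in wildtype LN, 8.63, 8.64 and 8.36 in deficient LN, and 7.61 and 7.22 in T. The wildtype LN arrays lay within the range of the deficient ones, and both T arrays stood below every LN array. The level was 2.26-fold lower in T than in wildtype LN (-1.17, SE 0.12, limma adjusted p = 6.86e-05) and 2.19-fold lower than in deficient LN (-1.13, SE 0.12, adjusted p = 0.000109).

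Ccr9, the thymus and gut homing receptor for Ccl25, was lower in the T lineage cells. Its probeset (10590620) read 6.65, 7.37 and 7.57 in wildtype LN, 6.82, 6.42 and 6.43 in deficient LN, and 5.33 and 5.52 in T. Wildtype LN was the most scattered group of any member (7.20 ± 0.48, SD, n = 3): its first array fell among the deficient arrays, and its other 2 lay above all of them. T was 3.41-fold lower than wildtype LN (-1.77, SE 0.23, limma adjusted p = 0.000295) and 2.19-fold lower than deficient LN (-1.13, SE 0.23, adjusted p = 0.0065). The call against deficient LN was lost without T array 1 (-1.04, adjusted p = 0.0529), and Ccr9 lies among the dimmest 40% of probesets.

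Ccr7, the other thymus-entry receptor and the receptor for lymph node homing, showed the smallest difference among the 6 lower members. Its probeset (10390763) read 8.55, 8.53 and 8.57 in wildtype LN, 8.55, 8.61 and 8.40 in deficient LN, and 8.0 and 8.25 in T. The 2 T arrays were the lowest of the 8, and the second of them lay close under the lowest LN array. The difference was 1.34-fold against wildtype LN (-0.42, SE 0.10, limma adjusted p = 0.0104) and 1.32-fold against deficient LN (-0.40, SE 0.10, adjusted p = 0.0179). Without T array 1 both calls were lost (-0.30, adjusted p = 0.114, and -0.27, adjusted p = 0.173). The call against deficient LN was also lost without deficient array 1 (-0.38, adjusted p = 0.0541), with only the 2 groups in the fit (adjusted p = 0.0507) and with all probesets tested (adjusted p = 0.0539).

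Cxcr4, the receptor that retains progenitors in the marrow and is needed at the first steps of thymocyte development, had no call in either comparison with T. Its probeset (10357472) read 11.94, 11.55 and 11.73 in wildtype LN, 11.90, 11.77 and 11.91 in deficient LN, and 11.70 and 11.52 in T. The T arrays overlapped wildtype LN and lay just below all deficient LN arrays. The differences were -0.13 (SE 0.11, 95% confidence interval -0.39 to 0.12, limma adjusted p = 0.488) against wildtype LN and -0.25 (SE 0.11, adjusted p = 0.195) against deficient LN.

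Cxcr6, a receptor for the membrane-bound chemokine Cxcl16 that is carried by effector and innate-like lymphocytes, was lower in T. Its probeset (10590623) read 7.91, 7.74 and 7.61 in wildtype LN, 8.0, 7.70 and 7.66 in deficient LN, and 7.01 and 6.53 in T. The LN groups overlapped each other, and neither T array reached them. T was 1.98-fold lower than wildtype LN (-0.98, SE 0.15, limma adjusted p = 0.00107) and 2.02-fold lower than deficient LN (-1.01, SE 0.15, adjusted p = 0.00111).

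Cxcr3, the receptor for the interferon-induced chemokines Cxcl9, Cxcl10 and Cxcl11, differed by less. Its probeset (10606058) read 6.83, 7.28 and 7.06 in wildtype LN, 6.95, 7.13 and 6.80 in deficient LN, and 6.47 and 6.44 in T. Both T arrays were below all LN arrays, with a gap wider than the one between the T arrays themselves. T was 1.52-fold lower than wildtype LN (-0.60, SE 0.13, limma adjusted p = 0.0083) and 1.42-fold lower than deficient LN (-0.51, SE 0.13, adjusted p = 0.0246). Against deficient LN the call was lost in 6 alternatives, among them without deficient array 1 (-0.51, adjusted p = 0.0608), deficient array 2 (-0.42, adjusted p = 0.0677), T array 1 (-0.52, adjusted p = 0.0955) or T array 2 (-0.50, adjusted p = 0.112).

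Cxcr5, the receptor for Cxcl13 that brings B cells and follicular helper T cells into follicles, was the 1 member that was higher in T. Its probeset (10592888) read 4.61, 4.65 and 4.70 in wildtype LN, 4.73, 5.03 and 4.87 in deficient LN, and 6.72 and 6.29 in T. Both T arrays stood more than 1 log2 unit above the highest LN array. T was 3.62-fold higher than wildtype LN (1.85, SE 0.13, limma adjusted p = 3.15e-06) and 3.09-fold higher than deficient LN (1.63, SE 0.13, adjusted p = 1.01e-05). Cxcr5 lies among the dimmest 40% of probesets by its mean over arrays, so the folds rest on a dim LN signal.

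S1pr1, the egress receptor, did not pass between the gates. Its probeset (10501586) read 6.23, 6.39 and 6.13 in wildtype LN, 6.28, 6.56 and 6.71 in deficient LN, and 6.39 and 6.13 in T. The T values lay within the range of wildtype LN. The difference was 0.01 (SE 0.13, 95% confidence interval -0.28 to 0.30, limma adjusted p = 0.968) against wildtype LN and -0.25 (SE 0.13, interval -0.55 to 0.04, adjusted p = 0.264) against deficient LN. S1pr1 is also among the dimmest 40%.

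**Figure D2:**
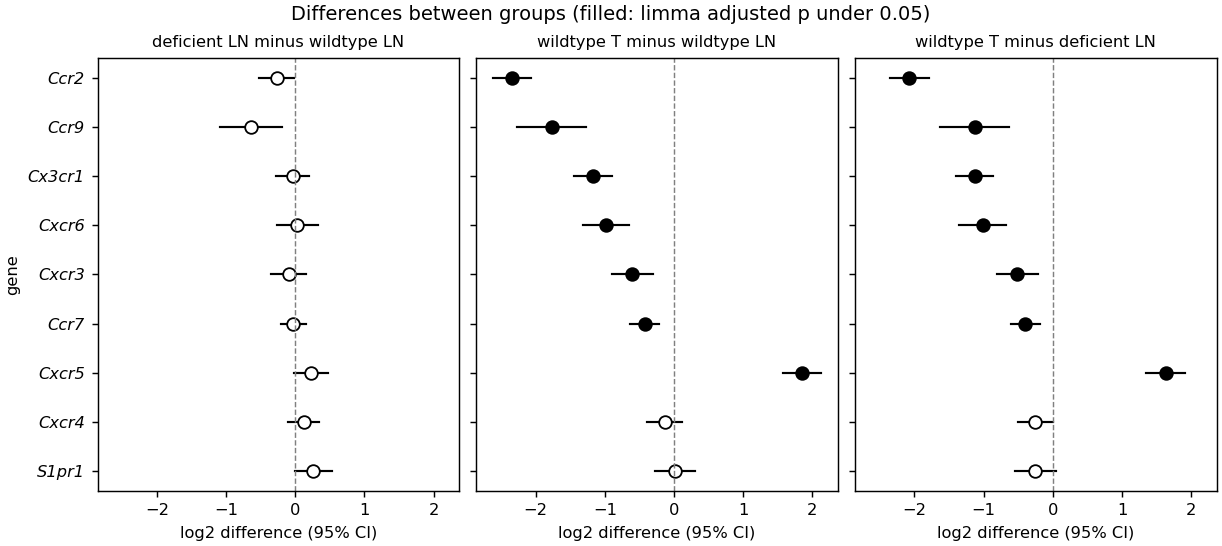
Log2 difference (horizontal axis) with its 95% confidence interval for each receptor (vertical axis) in the 3 comparisons, filled where the limma adjusted p is under 0.05. In all, 7 receptors are filled in each comparison with T, and none is filled between the LN genotypes.

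Markers of other cell types moved with the fall of Ccr2, Cx3cr1, Ccr9, Cxcr6, Cxcr3 and Ccr7. The mean log2 level of 12 dendritic cell markers ran from 9.47 to 9.75 in wildtype LN, from 9.26 to 9.47 in deficient LN and from 6.5 to 6.59 in T, and 11 of the 12 were lower in T than in wildtype LN. Siglech, a marker of plasmacytoid dendritic cells, read 10.71, 10.78 and 10.85 in wildtype LN and 6.68 and 6.83 in T. The mean of 11 monocyte and granulocyte markers ran from 8.14 to 8.71 in wildtype LN, from 8.24 to 8.28 in deficient LN and from 6.53 to 6.78 in T, with 6 of 11 lower in T. Itgam, which encodes the gated-out Mac1, read 8.01, 7.81 and 8.34 in wildtype LN and 6.25 and 7.04 in T. RMA gives no 0 level, so no marker can be read as absent. The part of such cells in the receptor differences was not tested.

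The T lineage markers moved the other way. Their mean over 8 genes ran from 6.76 to 6.92 in wildtype LN and from 9.42 to 10.02 in T. It includes the gated Thy1 and Il2ra. The mean of 7 B lineage markers, beside which Cxcr5 is usually found, ran from 6.84 to 7.43 in wildtype LN, from 6.89 to 7.20 in deficient LN and from 6.59 to 6.80 in T, with 0 of 7 higher and 2 of 7 lower in T than in wildtype LN. NK and innate lymphoid markers (9 genes) ran from 7.14 to 7.21 in wildtype LN and from 6.30 to 6.36 in T, with 2 higher and 2 lower, so the mean hides members that moved in opposite directions. Klrd1 (-5.71, limma adjusted p = 2.4e-09) and Klrk1 (-3.93, adjusted p = 5.87e-08), which encode receptors of NK cells, were lower in T beside Cxcr6, Cxcr3 and Cx3cr1, while Nkg7 (1.06) and Zbtb16 (1.09) were higher. Ncr1, Eomes, Tbx21 and Klrb1c did not pass, and the part of such cells was not tested. Mast cell and basophil markers (6 genes) ran from 6.85 to 7.21 and from 7.29 to 7.4, with 1 higher. Stromal markers (12 genes) ran from 6.53 to 6.56 and from 6.45 to 6.51, with 1 lower.

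Between the genotypes none of the 9 receptors passed limma's test in LN cells, where 0.00459% of all probesets did. At an unadjusted p under 0.05 there were 3 of 9 members and 1071 of 21789 probesets, and the smallest adjusted p of a member was 0.778. The median difference of deficient minus wildtype LN was -0.03 over the members and -0.007 over all probesets. The arrays of the genotypes did not overlap for 2 of the 9 members, Ccr2 and Cxcr5, and for 9.95% of all probesets.

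Ccr9 had the largest difference, at -0.64 (SE 0.20, 95% confidence interval -1.09 to -0.19, limma adjusted p = 0.778), with the mean lower in deficient cells and 1 wildtype array inside the deficient range. Without that array, wildtype LN 1, it was -0.91 (adjusted p = 0.0864), and over all alternatives it lay between -0.91 and -0.45. The Ccr2 difference was -0.27 (SE 0.11, interval -0.53 to -0.02, adjusted p = 0.979), and the highest deficient array lay just under the lowest wildtype array. Over the same arrays the plasmacytoid markers Siglech and Bst2 were also below every wildtype array, but did not pass. Siglech read 10.54, 10.34 and 9.83 in deficient LN (-0.54, limma adjusted p = 0.672). Bst2 read 10.20, 9.94 and 9.97 in deficient against 10.43, 10.58 and 10.50 in wildtype LN (-0.47, adjusted p = 0.198). Of the other dendritic cell markers, Cd209a (-0.59) and Flt3 (-0.23) also lay below. The rest overlapped, among them H2-Aa (-0.06) and Zbtb46 (0). The granulocyte and monocyte markers S100a8, S100a9 and Lyz2 were also uneven in the wildtype LN arrays. Their first array lay well below the other 2, as for Ccr9. The mean of their list of 11 markers was also lowest in that array, at 8.14, 8.4 and 8.71 in wildtype LN. Elane read 7.19, 7.66 and 8.01 in wildtype LN, and Fcgr3 read 6.76, 7.1 and 7.26. Cd14 (6.09, 6.28 and 6.29) and Ly6g (4.59, 4.66 and 4.82) were also lowest in the first array. Mpo read 11.51, 11.51 and 11.94. The first array was not the lowest for Csf1r (9.99, 9.8 and 10.09), Csf3r (6.61, 6.29 and 6.48) or Itgam (8.01, 7.81 and 8.34). S100a8 read 9.27, 10.25 and 10.73 in wildtype LN and 9.47, 9.56 and 9.37 in deficient LN (-0.62, limma adjusted p = 0.999). S100a9 read 9.55, 10.44 and 10.87 in wildtype LN and 9.39, 9.76 and 9.1 in deficient LN (-0.87, adjusted p = 0.778). Lyz2 differed by -0.57 (adjusted p = 0.971), with wildtype LN arrays at 10.0, 10.61 and 11.04. The other 8 genes of that list lay between -0.05 and 0.27. The part of these markers in the Ccr9 and Ccr2 values was not tested.

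S1pr1 and Cxcr5 had the largest positive differences. S1pr1 averaged 6.51 ± 0.22 (SD, n = 3) in deficient LN. In wildtype LN it averaged 6.25 ± 0.13 (SD, n = 3), a difference of 0.26 (SE 0.12, limma adjusted p = 0.999) with overlapping arrays. Cxcr5 averaged 4.88 ± 0.15 (SD, n = 3) and 4.65 ± 0.05 (SD, n = 3), a difference of 0.23 (SE 0.11, adjusted p = 0.999) without overlap. Cxcr4 (0.12, SE 0.10), Cxcr3 (-0.09, SE 0.12), Cx3cr1 (-0.04, SE 0.11), Ccr7 (-0.03, SE 0.09) and Cxcr6 (0.03, SE 0.14) each had an adjusted p of 0.999. These values do not show that the genotypes are alike, since the intervals for Ccr9, Ccr2 and S1pr1 extend well away from 0.

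Non-overlap between groups was common wherever T arrays entered. It held for 7 of the 9 members in T against wildtype LN, where 47.8% of all probesets did not overlap, and for 8 of the 9 in T against deficient LN, where 40.7% did not. Cxcr4 made the difference, since its T arrays fell below deficient but not wildtype LN. S1pr1 overlapped in both.

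A smaller share of the other receptors of the same classes passed between the gates than of the members. The members and lists were chosen with earlier results of these data known, and they were not matched for brightness. This contrast is therefore a description and no test. Of 16 other chemokine receptor probesets, 3 were lower and 1 higher in T than in wildtype LN, and their median difference was 0.04. The shares over all probesets were 10.4% lower and 7.66% higher. Xcr1, the receptor that marks cross-presenting dendritic cells, read 7.85, 7.77 and 8.27 in wildtype LN, 8.41, 7.84 and 7.78 in deficient LN, and 5.50 and 5.82 in T (T minus wildtype LN -2.30, SE 0.20, limma adjusted p = 1.9e-05). Ccr4, the receptor for Ccl17 and Ccl22, went the way of Cxcr5, reading 5.91, 5.85 and 5.48 in wildtype LN, 5.65, 5.68 and 5.56 in deficient LN, and 7.44 and 6.80 in T (1.37, SE 0.17, adjusted p = 0.000275). Both T arrays lay apart from all LN arrays for each of these genes. Ccr1 (-0.43, adjusted p = 0.0113) and Cmklr1, the chemerin receptor (-0.36, adjusted p = 0.0473), were also lower. Ccr1 lost its call without T array 2 (-0.35, adjusted p = 0.101). Cmklr1 lost its call in 10 of 16 alternatives. Among them were the fits without deficient array 2 (adjusted p = 0.0627), deficient array 3 (0.0612), wildtype LN array 1 (-0.31, adjusted p = 0.136) or wildtype LN array 3 (-0.33, adjusted p = 0.13). Others were the fits without T array 1 (-0.21), with median centring (adjusted p = 0.0646) and with all probesets tested (adjusted p = 0.107).

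Among 10 probesets of other lysophospholipid and oxysterol receptors, the relatives of S1pr1 in function, 2 were lower and 1 higher. Over all probesets 10.4% were lower and 7.66% higher. Gpr183, an oxysterol receptor that positions lymphocytes and dendritic cells, read 9.51, 9.87 and 9.87 in wildtype LN, 9.72, 9.62 and 9.45 in deficient LN, and 8.30 and 7.94 in T (-1.64, limma adjusted p = 1.76e-05). The T arrays were more than 1 log2 unit below every LN array. Lpar6 was lower (-0.65, adjusted p = 0.000572), and Lpar2 higher (0.38, adjusted p = 0.0281); both bind lysophosphatidic acid. The Lpar2 call was lost without wildtype LN array 1 (0.33, adjusted p = 0.0899), wildtype LN array 3 (0.37, adjusted p = 0.0743), T array 1 (0.32) or T array 2 (0.44). It was also lost with all probesets tested (adjusted p = 0.0722). The list's median difference was 0. Between the LN genotypes 0 of the 16 and 0 of the 10 passed.

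**Figure D3:**
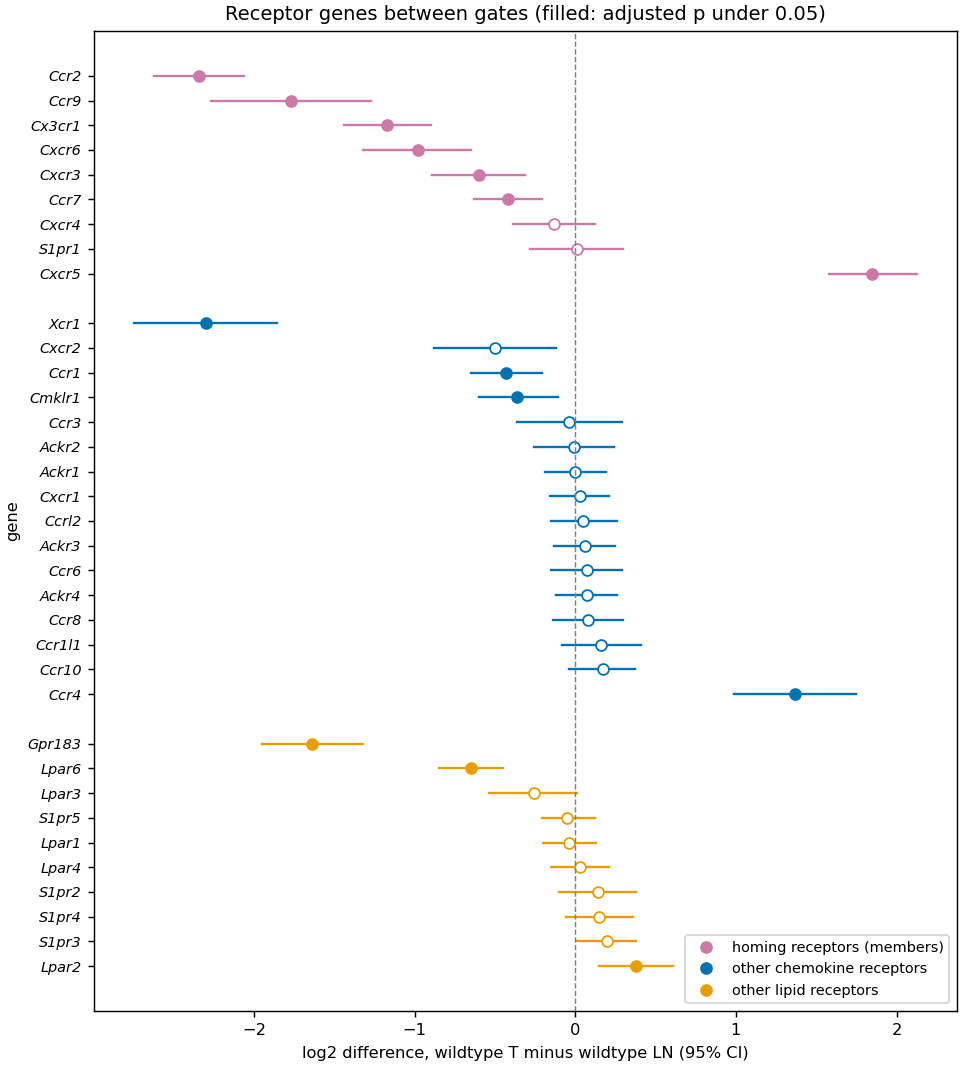
Log2 difference of wildtype T minus wildtype LN (horizontal axis) with its 95% confidence interval for the 9 members, 16 other chemokine receptors and 10 other lipid receptors (vertical axis), filled where the limma adjusted p is under 0.05. Ccr2 and Xcr1 lie farthest to the left and Cxcr5 and Ccr4 farthest to the right, while most other receptors lie near 0.

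Several members are neighbours on chromosome 9. In the RefSeq annotation Ccr9, Cxcr6, Xcr1, Ccr1, Ccr1l1, Ccr3 and Ccr2 follow one another in that order, with 1 coding gene between Ccr9 and Cxcr6 and none between the later ones. Of these 7 genes, Ccr9, Cxcr6, Xcr1, Ccr1 and Ccr2 were lower in T than in wildtype LN, as were 10.4% of all probesets. Ccr1l1 (0.16, SE 0.11, limma adjusted p = 0.379) and Ccr3 (-0.04, SE 0.15, adjusted p = 0.908), which lie between Ccr1 and Ccr2, did not pass. Cx3cr1 lies apart from this stretch beside Ccr8, which did not pass (0.08, SE 0.10, adjusted p = 0.653). Cxcr5 and Ccr4, the 2 genes that were higher in T, are also on chromosome 9 but outside the stretch.

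**Figure D4:**
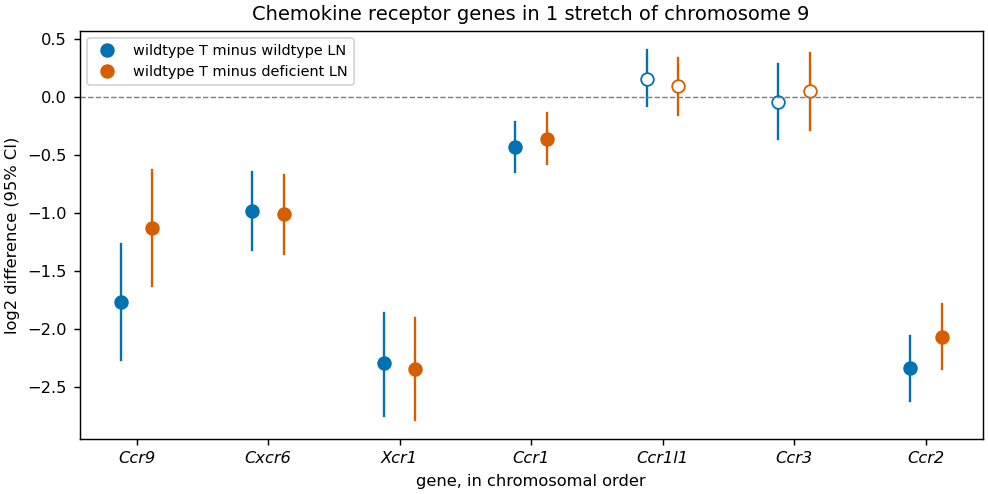
Log2 difference (vertical axis, with 95% confidence interval) of wildtype T against each LN group for 7 receptor genes of chromosome 9 in chromosomal order (horizontal axis), filled where the limma adjusted p is under 0.05. Ccr1l1 and Ccr3 lie near 0 between the lower genes Ccr1 and Ccr2.

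The genes whose profiles lay nearest to a member were found by the root mean square distance between log2 profiles over the 8 arrays, each centred on its own mean, for the 5 members whose range was at least 1. This measure is a description and carries no test. Nearest to Ccr2 were Evi5 (distance 0.102), Fam135a (0.105) and Lacc1 (0.116). Nearest to Cx3cr1 were Trim30a (0.044), Ssbp2 (0.072) and Cd53 (0.094), and the first of these was the smallest distance found. The profile of Ccr9, with its uneven wildtype LN arrays, had more distant neighbours in Hepacam2 (0.161), Upk1b (0.177) and Clec4a3 (0.183). Cxcr6 had Rcbtb1 (0.088), Phka1 (0.104) and Nemp2 (0.115), and Cxcr5, whose profile rose in T, had Vat1l (0.105), Xrcc5 (0.127) and Mpp4 (0.152).

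**Figure D5:**
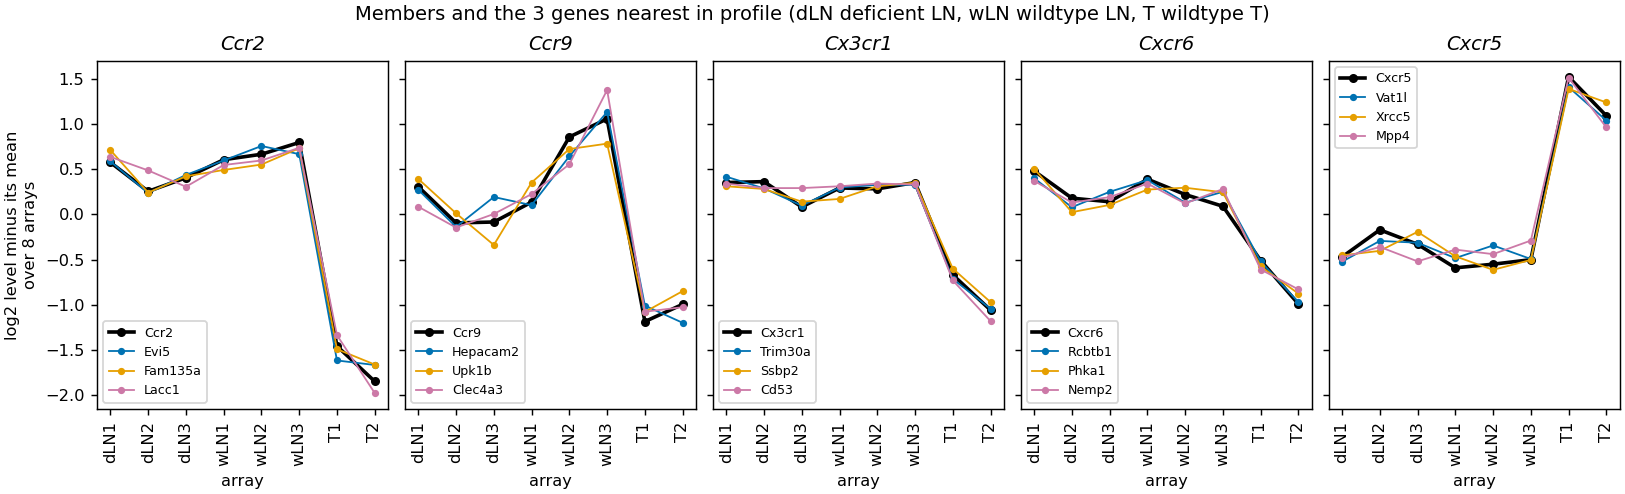
Log2 level minus its mean over the 8 arrays (vertical axis) on each array (horizontal axis) for 5 members (black) and the 3 genes nearest to each in profile (colours). The step between LN and T arrays is the main feature of every panel, and in the Ccr9 panel the wildtype LN arrays also differ among themselves.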

How the data were processed

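Expression was measured on 8 one-colour arrays of sorted mouse cells, from 10 ng of total RNA each, amplified with a NuGEN kit and labelled with biotin per the labels' protocols. The authors deposited log2 values per probeset, made with RMA in Partek 6.5 per the submitters' processing notes. The genome build is not given in the sources used here. RMA normalizes the arrays together, so a change shared by most transcripts cannot be seen, and it compresses the differences of dim probesets. No detection call was used, and precision is limited by how few arrays there are. The p-values measure the spread between these arrays, and for the T arrays the labels do not say whether they came from separate mice.

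Of 35399 probesets, 11989 without a gene and 1621 with several genes were left out. The other 21789 were fitted with limma 3.58.1 in R 4.3.3 (lmFit, eBayes; 3 groups, 5 residual degrees of freedom), with two-sided p adjusted by Benjamini-Hochberg over all of them. The gene identifier matched the reference for 99.6%. The fit was tested on simulated data. The members, gene lists and alternatives were chosen with earlier results of these data known. Named were all members and the 3 nearest profiles. Of each other list, up to 4 called genes of smallest p were named, or with no call the 2 of largest change. The values of Klf2, Icam2, Ccr1l1, Ccr3, Ccr8, Siglech, Bst2 and Itgam were given after they were seen. So were those of S100a8, S100a9, Lyz2, Elane, Csf1r, Csf3r, Cd209a, Flt3, H2-Aa, Zbtb46, Sparc, Pdgfrb, Postn and the named NK genes. The values of Fcgr3, Cd14, Ly6g and Mpo were likewise given after they were seen. Alternatives left out each array or the dimmest 40% of probesets, changed the normalization, array weights, variance model or tested set, fitted 2 groups, or added a replicate block. Applying them to the other lists was decided after the data were seen. Promoter letters were counted in RefSeq windows.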

Additional observations from a re-analysis of the deposited data

How the results depend on the processing

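In deficient against wildtype LN, 0 members were called in each of the 16 alternatives. In T against wildtype LN, 6 to 7 members were called when 1 array was left out, and 5 of the 6 that remained without the dimmest 40% of probesets. In T against deficient LN, the count ran from 4 (without T array 1) to 7 when 1 array was left out. The calls lost were those of Ccr7, Cxcr3 and Ccr9 given above. With the replicate block the counts were 0, 7 and 7, and no member's call changed, while Cmklr1 (-0.33, adjusted p = 0.119) and Sgpp1 (-0.28, adjusted p = 0.0558) lost theirs in T against wildtype LN. Deviations of same-numbered arrays correlated with r from -0.25 to 0.16, so the numbers were not taken to pair the arrays. Of the other lists in T against wildtype LN, leaving out 1 array gave 2 to 4 calls for control of sphingosine-1-phosphate (4 with all arrays, 2 without wildtype LN array 2 or T array 2), 0 to 1 for ligands (0 without T array 1) and 6 to 10 for signalling (6 without T array 1). Without the dimmest 40%, 2 of 5 other chemokine receptors, 0 of 5 ligands and 3 of 4 genes of the chromosome 9 list were called. Ccr4, Ccr1, Cxcl16 and Ccr9, called in the main fit, were among the probesets left out there. In deficient against wildtype LN, 1 signalling probeset passed with median centring, with array weights and with the trend and robust model, against 0 otherwise. Cmklr1, Lpar2, Sgpp1, Foxo1, Cxcl16 and Ccr1 each lost their call under at least 1 alternative. The cause was not tested. With 2 to 3 arrays a group and no detection level, small differences in the dim members Ccr9, Cxcr5 and S1pr1 are the least certain.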

Other observations

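Genes that act with the receptors were counted in the same fit. Beside each count below, 10.4% of all probesets were called lower in T than in wildtype LN and 7.66% higher. Of 17 probesets of the members' chemokine ligands, 1 was lower in T than in wildtype LN and 0 were higher. The lower one, Cxcl16, is the ligand of Cxcr6 (-0.50, limma adjusted p = 0.00932), and it did not pass without T array 1 (-0.40, adjusted p = 0.0928). Of 32 probesets for signalling and desensitisation, 8 were lower and 2 higher, and without T array 1 the counts were 6 and 0. Among the lower ones were Gng2, a G protein subunit (-1.32, adjusted p = 1.55e-06), the receptor kinase Grk3 (-1.94, adjusted p = 2.08e-05), Rgs2, which shortens G protein signals (-1.26, adjusted p = 2.35e-05), and Dock2, an activator of Rac in migrating lymphocytes (-0.48, adjusted p = 0.00108). Of 11 genes that control sphingosine-1-phosphate and its receptor, 3 were lower and 1 higher. Sgpl1, the lyase that degrades it, read 9.18, 9.09 and 9.27 in wildtype LN, 9.11, 8.83 and 9.04 in deficient LN, and 7.41 and 7.19 in T (-1.88, adjusted p = 9.44e-07), with both T arrays below all LN arrays. Sgpp1 (-0.31, adjusted p = 0.0194) and Foxo1 (-0.47, adjusted p = 0.0157) were also lower, and Spns2, its exporter, was higher (0.64, adjusted p = 0.000998). Foxo1 lost its call without wildtype LN array 2 (-0.44, adjusted p = 0.0524) or T array 2 (-0.26), and with all probesets tested (adjusted p = 0.0519). Sgpp1 lost its call without wildtype LN array 2 (adjusted p = 0.057), wildtype LN array 3 (0.0723), T array 1 (-0.27) or T array 2 (-0.35). Its call was also lost with a second quantile normalization (adjusted p = 0.0644) and with the replicate block (0.0558). Klf2, a known activator of S1pr1 transcription, had a difference of -0.01 (SE 0.07, adjusted p = 0.968).

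Adhesion molecules of homing had the largest share of calls among these lists: 9 of 15 were lower in T than in wildtype LN and 1 was higher, with a median of -0.32 beside 0.042 over all probesets. The dendritic and monocyte marker lists were lower in the same arrays, and their part in these counts was not tested. Itgb2, the beta chain of LFA-1 and Mac1 (-1.44, adjusted p = 3.49e-06), Cd44, which binds hyaluronan (-1.09, adjusted p = 4.17e-05), Selplg, the ligand of P-selectin (-0.83, adjusted p = 7.35e-05), and Pecam1 (-0.74, adjusted p = 0.000247) were lower, and Icam2 was higher (0.33, adjusted p = 0.015).

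Between the LN genotypes 0 probesets of these lists passed limma's test. The nearest was Rgs1, a regulator that damps chemokine receptor signals, at 7.98, 8.25 and 8.21 in deficient LN, 7.41, 7.46 and 7.52 in wildtype LN, and 7.85 and 7.56 in T. All 3 deficient arrays lay above all 3 wildtype LN arrays (0.68, SE 0.10, 95% confidence interval 0.47 to 0.90, limma adjusted p = 0.0962). It passed with median centring (0.69, adjusted p = 0.0499), array weights (0.70, adjusted p = 0.0438) and the trend and robust variance model (0.68, adjusted p = 0.0361). In the other alternatives it did not pass. Cxcl12, the ligand of Cxcr4, read 7.27, 6.72 and 6.5 in deficient LN against 6.47, 6.47 and 6.28 in wildtype LN (0.42, adjusted p = 0.959). The mean of 12 stromal markers, Cxcl12 among them, ran from 6.59 to 6.74 in deficient and from 6.53 to 6.56 in wildtype LN. Of that list Sparc (0.54, limma adjusted p = 0.0997) and Pdgfrb (0.39, adjusted p = 0.688) also lay above every wildtype LN array. Postn (-0.12) lay below, and the other markers overlapped. The part of stromal RNA was not tested.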
